A study of Gallus gallus with 4 samples.

Results

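The basophil-like cells of hen blood described here were the cells with a CTSG value of at least 10 and a summed HDC and GATA2 value of at least 2. There were 54 such cells among the 12042 cells of replicates 1 to 3. CTSG encodes cathepsin G, a serine protease of granules. HDC encodes histidine decarboxylase, the enzyme that makes histamine, and GATA2 encodes a transcription factor of blood progenitors, mast cells and basophils. The other 11988 cells of the same libraries, called remaining cells below, were the set they were compared with.

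RNA was measured in single leukocytes from the blood of healthy, untreated female laying hens aged 24 weeks, with 1 library for each hen. The labels give the hybrid as Bovans Robust, whereas the methods name Dekalb White. Red cells were reduced on Ficoll, and the nucleated thrombocytes with an antibody to the integrin CD41/61, so both groups come from depleted blood. Replicate 4 shared 4890 barcodes with replicate 3 and was left out, since the values of these cells differed by only 0.682% of their sum and all 26 basophil-like cells of replicate 3 were in it. Any other pair of libraries shared 1 to 9 barcodes.

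Basophils are rare granulocytes that store histamine and proteases in granules. In mammals they carry Fc receptors for IgE, whose gamma chain passes the signal to kinases, phospholipase C and calcium, and the granules then fuse with the plasma membrane. Mast cells share much of this machinery, and pack histamine and proteases with heparin, a highly sulfated form of heparan sulfate. Growth and survival of basophils depend on cytokines that signal through the common beta chain CSF2RB.

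The genes of the rule are given as a description only. CTSG lies on chromosome 28 of the GRCg7b assembly from 1694299 to 1696379, HDC on chromosome 10 from 10899713 to 10909094, and GATA2 on chromosome 12 from 9378895 to 9396382. Levels are sums of the deposited values over the cells of a library, scaled to 10000. CTSG was at 459, 487 and 395 per 10000 in the basophil-like cells of replicates 1, 2 and 3, against 0.118, 0.185 and 0.203 in the remaining cells. HDC was at 48.4, 42.1 and 62.7 in the basophil-like cells, against 0.0143, 0.0478 and 0.0596 in the remaining cells. GATA2 was at 67.6, 51.8 and 48.2 in the basophil-like cells, against 0.275, 0.441 and 0.344 in the remaining cells. All 3 genes were thus high in the chosen cells of every hen. The rule sets a limit for CTSG and for the sum of HDC and GATA2, but not for HDC or GATA2 alone.

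The cells stood well away from the limits of the rule. The basophil-like cells nearest to the limit had CTSG values of 27, 29, 32 and 39. Outside it, the nearest cells had a CTSG of 16 with a summed HDC and GATA2 of 1, and a CTSG of 7 with a sum of 2. A further cell with an HDC of 31 and a GATA2 of 4 was left out, since its CTSG was 3. A looser rule (CTSG of at least 5, HDC and GATA2 of at least 1) gave 56 cells, and a stricter one (at least 20 and at least 4) gave 54.

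**Figure D1:**
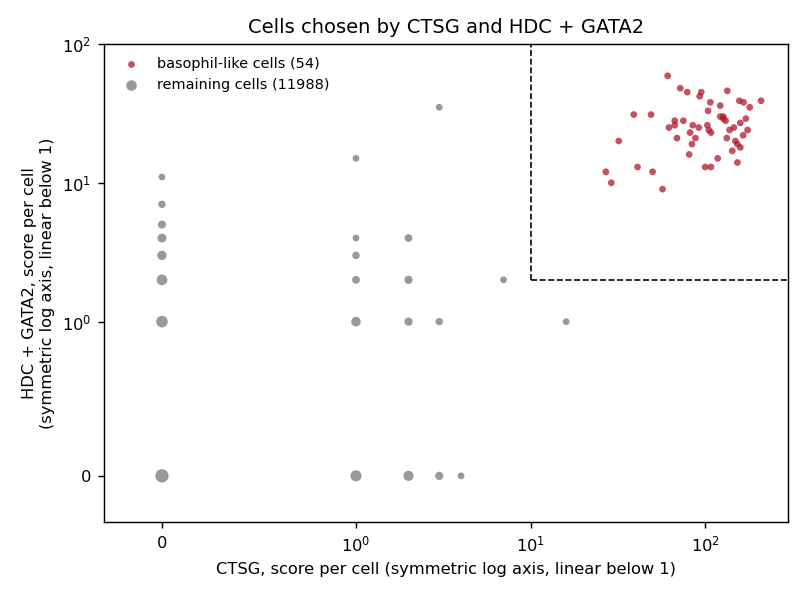
Value of CTSG per cell (x axis) against the sum of HDC and GATA2 (y axis), both as deposited scores on symmetric log axes, in replicates 1 to 3. Red points are the 54 basophil-like cells and grey points the 11988 remaining cells, larger where more cells share a value, and the dashed lines mark the rule. The red points start at a CTSG of 27, while 2 grey cells have a CTSG of 5 or more.

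A value of 1 or more of these genes was also found outside the group. CTSG was so detected in 372 remaining cells, or 3.10%, and in 4.52% of the cells of a T-cell gate (CD3D, CD3E and CD247 together at 2 or more), with median totals of 2409 and 2507 per cell. HDC was detected in 0.501% of remaining cells and in 0.478% of T-gate cells, and GATA2 in 6.02% and 7.02%. The share for GATA2 reached 28.9% of 249 cells of a thrombocyte gate (ITGB3 at 1 or more, with ITGA2B and ITGB3 together at 2 or more), where its level was 3.30, 2.66 and 2.98 per 10000. CTSG was detected in 10.8% of thrombocyte-gate cells (27 of 249, median total 1980), a higher share than in the T gate. It was detected in 0.689% of B-gate cells and 0.108% of monocyte-gate cells, with median totals of 2445 and 2398. Its share was thus not alike in all types. The part of free RNA in these low values was not tested.

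Basophil-like cells made up 14 of 4452 cells of replicate 1, or 0.314% (exact Clopper-Pearson 95% interval 0.172 to 0.527%). They made up 14 of 2697 cells of replicate 2, or 0.519% (0.284 to 0.869%), and 26 of 4893 cells of replicate 3, or 0.531% (0.347 to 0.778%). The mean share was 0.455 ± 0.122% (SD, n = 3), the intervals of the 3 hens overlapped, and the highest share was 1.69 times the lowest. The intervals cover counting error only. These are shares of leukocytes left after depletion of other cells, and not of whole blood.

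The deposited values were corrected to a common depth, with a total of 1702 to 2936 in every basophil-like cell. The median total was 2595.5 in basophil-like and 2409 in remaining cells, with medians of 1261.5 and 1119 genes detected per cell. Mitochondrial transcripts made up a median of 4.07% of the values of basophil-like cells, against 9.20% in remaining cells. None of the 54 basophil-like cells passed the study's limit of 20%, against 889 of the remaining cells.

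Markers of other blood cells were checked in the chosen cells. Of the 6 B-cell markers, 5 were at 0 in all basophil-like cells, and a value of 1 was found in 1 cell. Of the 6 monocyte markers, 5 were also at 0 in all of them, among them MMR1L4, CD14 and CSF1R, with a single value of 1 in 1 cell. CD14 was at only 0.0976 per 10000 in the remaining cells. The summed red cell markers were at 1.48, 1.21 and 3.51 per 10000 in the basophil-like cells, against 3.40, 3.95 and 3.40 in the remaining cells. The 4 heterophil markers summed to 2.07, 3.64 and 1.68 in the basophil-like cells, against 6.56, 7.34 and 6.21 in the remaining cells. The shares of cells with a value went the other way. At least 1 red cell marker had a value in 42.6% of basophil-like and 33.8% of remaining cells. For the heterophil markers the shares were 37.0% and 31.0%. The 6 eosinophil markers summed to 10.3, 9.39 and 10.8 in the basophil-like cells, against 7.67, 8.61 and 7.12 in the remaining cells. These sums were thus higher in the basophil-like cells, but none of the 4 genes that passed the filter passed the test. At least 1 of the eosinophil markers had a value in 83.3% of basophil-like cells, against 57.8% of remaining cells. DACH1 and IL5RA, which define the eosinophil-like gate, were detected in 4 and 2 of the 54 cells. The cycling markers together had a value in 6 of them, or 11.1%, against 5.62% of remaining cells. The T-cell, thrombocyte and cytolytic lists are described with their genes below.

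Across all genes, 579 of 3461 genes tested were higher and 670 were lower in basophil-like than in remaining cells (limma on log2 of the level plus 0.5, 3 libraries each, Benjamini-Hochberg adjusted p under 0.05). The background share of genes called higher was thus 16.7%, and of genes called lower 19.4%. The median log2 fold change over all genes tested was -0.07. The libraries of the groups did not overlap in 25.4% of the genes tested, with the basophil-like cells higher, and in 28.3% with them lower. A gene was tested where its mean over both groups was at least 0.5 per 10000, so a gene below that mean in 1 group was tested only if it was high enough in the other, and such a gene had to differ. This held for 233 of the 576 higher genes outside the rule and for 360 of the 670 lower genes, so counts and medians of the lists below describe the genes that passed this filter and are no support for a direction. The cells were chosen by 3 genes of the same RNA measurement, so the other genes are not wholly independent of the rule. Without replicate 1 the calls numbered 792 in all, and without replicate 3 they numbered 736, against 1249 with all libraries. Fold changes are on the log2(level + 0.5) scale, which understates the change of genes with low levels.

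The basophil markers that the rule did not use were FCER1G, NDST2 and CD63. All 3 were higher in basophil-like cells, as were 16.7% of all genes tested. The study putatively named its basophil cluster by high levels of these markers in the same samples. Their direction is therefore not independent evidence of the identity of the cells. FCER1G, on chromosome 25 from 2532540 to 2534058, encodes the Fc receptor gamma chain. It was at 24.8, 21.8 and 17.2 per 10000 in the basophil-like cells, against 0.271, 0.836 and 0.553 in the remaining cells. The libraries of the 2 groups did not overlap, and the log2 fold change was 4.39 (SE 0.24, limma adjusted p = 3.14e-05). All 54 basophil-like cells had an FCER1G value of 1 or more, with a median of 5, whereas 8.39% of remaining cells and 1.23% of T-gate cells had one. NDST2 and CD63 are described with their pathways.

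Fc receptors of mast cells and basophils signal through Src-family kinases and SYK to adaptors, BTK and phospholipase C gamma. Of 25 genes listed for this pathway, 21 were in the matrix and 19 passed the filter on low levels. Of these, 6 were higher, 3 were lower and 10 did not pass the test, beside 16.7% higher and 19.4% lower over all genes tested. The median log2 fold change of the 19 was 0.04, beside -0.07 over all genes. LAT2 passed the filter only through the basophil-like cells and RASGRP1 only through the remaining cells. PLCG1, the phospholipase, was at 11.5, 14.5 and 13.0 per 10000 in the basophil-like cells, against 1.74, 1.41 and 1.53 in the remaining cells. It was detected in 51 of the 54 cells, no library of the remaining cells came near, and the log2 fold change was 2.71 (SE 0.16, limma adjusted p = 3.14e-05). PLCG1 was also detected in 42.8% of T-gate cells. Its share was 0.477% in the B gate, 0.216% in the monocyte gate, 0.402% in the thrombocyte gate and 1% in the eosinophil-like gate.

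The adaptors LAT2, which takes the place of LAT in many cells outside the T lineage, and GRAP2 were also higher. LAT2 was at 1.48, 0.909 and 0.762 in the basophil-like cells, against 0.0487, 0.0756 and 0.0783 in the remaining cells, and GRAP2 changed by 0.94 on the log2 scale. BTK was called higher by 1.72 on the log2 scale. The kinase gene PRKCB was called higher too, at 2.95, 4.55 and 5.03 in the basophil-like cells, against 1.42, 1.72 and 1.37 in the remaining cells. The BTK call was lost without replicate 1 or 3, with adjusted p from 0.00127 to 0.0972 over the alternatives, and the PRKCB call without replicate 3, with adjusted p from 0.00242 to 0.0724. The kinases at the head of the pathway were not among the higher genes. LYN was at 5.31, 6.36 and 4.73 in the basophil-like cells, against 4.90, 7.93 and 6.90 in the remaining cells, and the SYK log2 fold change was -0.11 (SE 0.46). RASGRP1, ITPR1 and FYN were lower, FYN by 0.78 on the log2 scale, and the FYN call was lost without replicate 1 or 2 (adjusted p from 0.00853 to 0.110 over the alternatives). GAB2 was at 0 in all basophil-like cells, whereas its relative GAB1, a docking protein of growth factor signalling, was at 7.68, 8.18 and 8.54 in the basophil-like cells, against 0.167, 0.352 and 0.291 in the remaining cells (log2 fold change 3.49, SE 0.17). GAB1 passed the filter only through the basophil-like cells. It was detected in 39 of the 54 cells and in 279 of 928 monocyte-gate cells.

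Granule and amine genes make and store what the cells release. Of 25 such genes, 2 belonged to the rule, 18 others were in the matrix, and 11 passed the filter. Of these, 7 were higher, none were lower and 4 did not pass the test (limma adjusted p under 0.05). Over all genes tested, 16.7% were higher and 19.4% were lower. The median log2 fold change of the 11 was 1.80, beside -0.07 over all genes. SLC18A2 and GZMA, 2 of the 7, passed the filter only through the basophil-like cells. SLC18A2 encodes the vesicular transporter that loads amines such as histamine into granules. It was at 5.02, 2.42 and 3.66 per 10000 in the basophil-like cells, against 0.0621, 0.128 and 0.156 in the remaining cells. The lowest basophil-like library was far above the highest of the remaining cells, and the log2 fold change was 2.73 (SE 0.26, limma adjusted p = 0.000237). In the thrombocyte gate, whose cells also store amines, SLC18A2 was at 3.98, 4.40 and 3.46. SLC18A2 overlaps an annotated non-coding locus, so its values are uncertain.

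Among granule proteases, GZMA, or granzyme A, was at 7.09, 14.5 and 7.62 in the basophil-like cells, against 0.141, 0.219 and 0.408 in the remaining cells. The groups did not overlap, and the log2 fold change was 3.70 (SE 0.29). GZMA was detected in 35 of the 54 cells. It overlaps GZMK on chromosome Z, so the counting could split reads between them, and GZMK was detected in 2 of the 54 cells. CTSC, the protease that activates cathepsin G and granzymes, was at 3.54, 15.8 and 11.0 in the basophil-like cells, against 1.00, 1.93 and 1.30 in the remaining cells. Its libraries ranged widely, and the call (log2 fold change 2.28) was lost without replicate 2 or 3, with adjusted p from 9.14e-05 to 0.151 over the alternatives.

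The lysosomal protease CTSD was at 5.02, 5.15 and 4.57 in the basophil-like cells, against 0.480, 0.611 and 0.528 in the remaining cells, and so differed little between hens. CTSB was also called higher, by 1.80 on the log2 scale, and this call was lost without replicate 3, with adjusted p from 0.000101 to 0.0708 over the alternatives. CD63, a tetraspanin of granule membranes that reaches the surface on degranulation, was at 10.3, 8.79 and 9.45 in the basophil-like cells, against 1.81, 2.60 and 2.06 in the remaining cells (log2 fold change 1.92, SE 0.17, limma adjusted p = 0.000169). LAMP1, a membrane protein of lysosomes, rose by 1.49. CTSS, LAMP2 and CST3 were among those that did not pass the test. EPX, the eosinophil peroxidase gene, and PRSS57 were at 0 in all basophil-like cells, as was the serotonin transporter gene SLC6A4.

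Heparin and heparan sulfate are built by a chain of enzymes that start, extend and sulfate the sugar. The study named this pathway for the cells from the same samples, so the list is not independent evidence. Of 34 genes, 30 were in the matrix and 9 passed the filter. Of these, 4 were higher, 3 were lower and 2 did not pass the test, beside 16.7% higher and 19.4% lower over all genes tested. The median log2 fold change was 0.49, beside -0.07 over all genes, also with the gene at 0 in all basophil-like cells set to its bound. NDST4 and HS6ST2, 2 of the 3 lower genes, passed the filter only through the remaining cells. EXT1, a polymerase of the chain, was at 12.1, 8.18 and 7.01 in the basophil-like cells, against 2.41, 2.03 and 2.17 in the remaining cells. NDST2, an N-deacetylase and N-sulfotransferase that mouse mast cells need to make heparin, was at 10.0, 15.2 and 13.6 in the basophil-like cells, against 0.917, 0.850 and 0.844 in the remaining cells. HS6ST1, a sulfotransferase of the 6-O position, was at 18.0, 23.3 and 17.1 in the basophil-like cells, against 3.12, 3.24 and 2.82 in the remaining cells. Every basophil-like library was above every library of the remaining cells in these genes, as in 25.4% of all genes tested, with log2 fold changes of 1.80 (SE 0.21) for EXT1, 3.27 (SE 0.19) for NDST2 and 2.48 (SE 0.16) for HS6ST1.

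Members of the same enzyme families went the other way. NDST4 was at 0 in all basophil-like cells, against 6.64, 4.75 and 4.08 in the remaining cells, which makes it at least 22.8-fold lower (from a floor of 3 counts over the 54 cells). This floor, used for every fold given as a least value, treats the corrected scores as counts, so these bounds are approximate. HS6ST2 was at 0, 0 and 0.305 in the basophil-like cells, against 3.57, 4.27 and 2.92 in the remaining cells. XYLT1, which starts the linker, was called lower (log2 fold change -1.01), and EXTL3, which helps to start the chain, was called higher (log2 fold change 0.65). Both calls were lost whichever of the 3 libraries was left out, with adjusted p over the alternatives from 0.0134 to 0.139 for XYLT1 and from 0.00595 to 0.0792 for EXTL3. NDST1 was at 0 in all basophil-like cells, but at only 0.137 in the remaining cells, and NDST3 had a summed value of 2. NDST2 overlaps ZSWIM8 and EXT1 overlaps non-coding loci in the annotation, so their values are uncertain.

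Fusion of granules with the plasma membrane uses RAB27 proteins and their partners. Of 27 genes listed for regulated exocytosis, 17 were in the matrix and 7 passed the filter. Of these, 4 were higher and none were lower, beside 16.7% higher and 19.4% lower over all genes tested. The median log2 fold change of the 7 was 1.13. UNC13D passed the filter only through the basophil-like cells. SYTL3, a RAB27 effector, was at 10.3, 11.8 and 9.91 in the basophil-like cells, against 0.588, 0.384 and 0.875 in the remaining cells. UNC13D, which primes granules for fusion in human lymphocytes and mast cells, was at 5.61, 6.67 and 5.64 in the basophil-like cells, against 0.416, 0.484 and 0.423 in the remaining cells. RAB27A was at 3.25, 4.55 and 4.42 in the basophil-like cells, against 0.646, 0.574 and 0.542 in the remaining cells. The libraries did not overlap between groups in these genes, as in 25.4% of all genes tested, and the log2 fold changes were 3.35 (SE 0.20) for SYTL3, 2.78 (SE 0.16) for UNC13D and 2.06 (SE 0.19) for RAB27A. Since UNC13D and WBP2 overlap, reads may have been split between them. SYTL2, another RAB27 effector, was called higher by 1.13, and the call was lost without replicate 1 or 3 (adjusted p from 0.0101 to 0.121 over the alternatives).

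**Figure D2:**
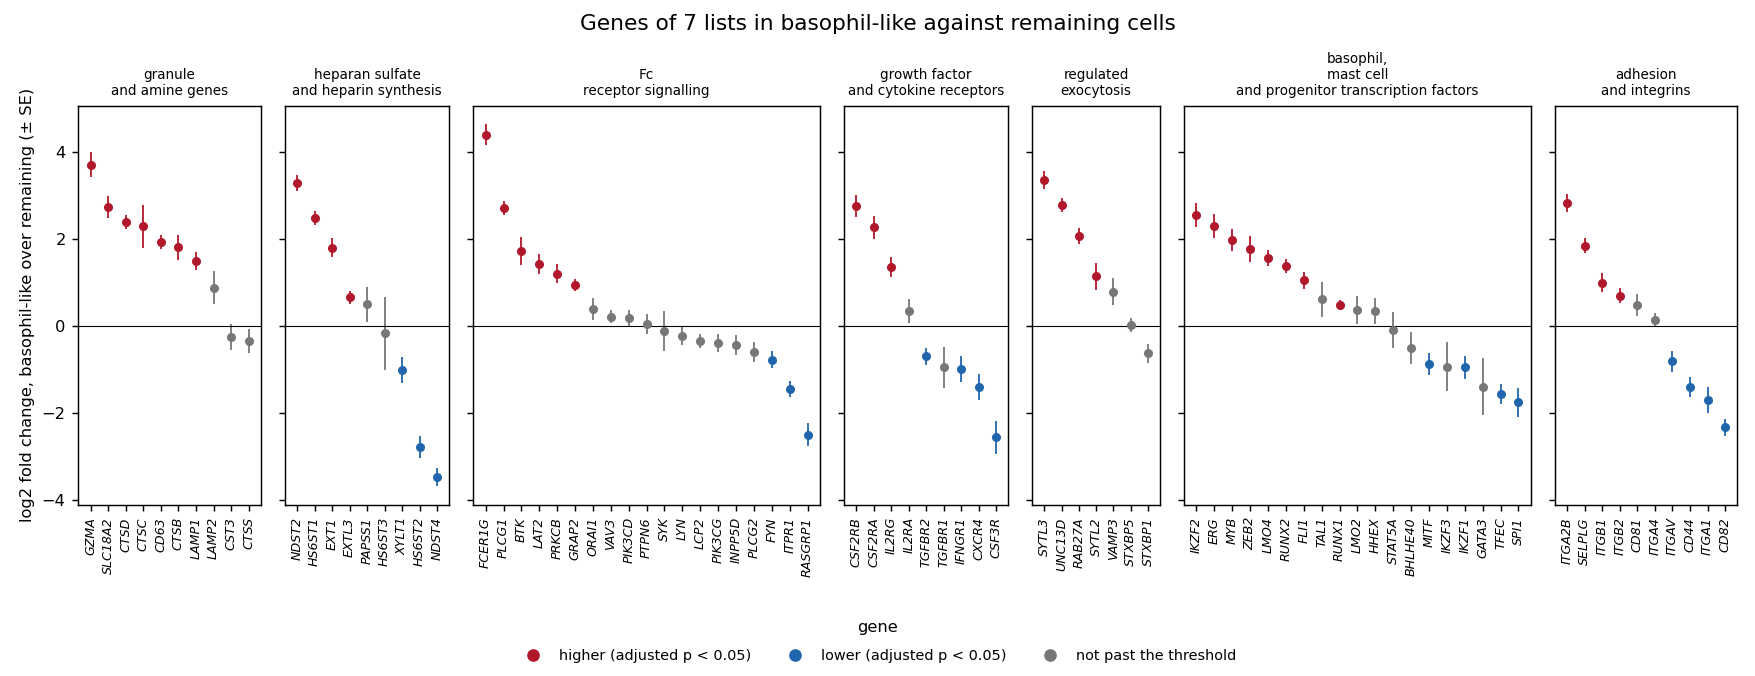
Log2 fold change of basophil-like over remaining cells (y axis, with its SE from limma, 3 libraries each) for genes of 7 lists that passed the filter (x axis). Red genes were higher, blue genes lower and grey genes did not pass the test. Granule and exocytosis genes hold red and grey points, with no blue point, while the heparan sulfate list runs from NDST2 at 3.27 down to NDST4, and the values of NDST4, TFEC and CD82, at 0 in all basophil-like cells, depend on the pseudocount.

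Cytokine receptors were split between the groups. Of 26 listed receptor genes, 23 were in the matrix and 9 passed the filter. Of these, 3 were higher, 4 were lower and 2 did not pass the test, beside 16.7% higher and 19.4% lower over all genes tested. The median log2 fold change of the 9 was -0.70. CSF2RB and CSF2RA passed the filter only through the basophil-like cells, and CSF3R and CXCR4 only through the remaining cells. CSF2RB was at 2.36, 3.33 and 4.73 in the basophil-like cells, against 0.0564, 0.0910 and 0.0596 in the remaining cells. CSF2RA, the alpha chain of the receptor for GM-CSF, was at 2.66, 3.64 and 4.88 in the basophil-like cells, against 0.185, 0.584 and 0.353 in the remaining cells. Each of these genes had a value of 1 or more in 30 of the 54 cells, and the log2 fold changes were 2.76 (SE 0.25) for CSF2RB and 2.26 (SE 0.27) for CSF2RA. IL2RG, the common gamma chain, rose by 1.35.

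CRCBL, the next gene to CSF2RB on chromosome 1 (51600449 to 51613192), was at 19.8, 17.0 and 17.7 in the basophil-like cells, against 0.421, 0.538 and 0.400 in the remaining cells (log2 fold change 4.29, SE 0.15, limma adjusted p = 3.87e-06). It passed the filter only through the basophil-like cells, so its direction was fixed by the filter. CSF3R, the G-CSF receptor of heterophils and monocytes, was at 0, 0 and 0.152 in the basophil-like cells, against 1.31, 4.65 and 3.13 in the remaining cells, and this call was lost without replicate 3 (adjusted p from 0.000146 to 0.0807 over the alternatives). TGFBR2, CXCR4 and IFNGR1, receptors for TGF-beta, the chemokine CXCL12 and interferon gamma, were called lower, and each call was lost without replicate 1 or 3. Each was also lost under at least 1 alternative that kept all 3 libraries, as listed at the end. Adjusted p over the alternatives ran from 0.0137 to 0.229 for TGFBR2, from 0.00866 to 0.113 for CXCR4 and from 0.0196 to 0.164 for IFNGR1. KIT, the stem cell factor receptor that marks mast cells in mammals, was at 0 in all 54 cells, but it also had a level of only 0.00174 in the remaining cells. IL1RL1, the receptor of interleukin-33, was at 0 in them too, against 0.235 in the remaining cells, and IL5RA had a summed value of 2.

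Among transcription factors of basophils, mast cells and progenitors, 34 were listed, 29 besides GATA2 were in the matrix and 19 passed the filter. Of these, 8 were higher, 4 were lower and 7 did not pass the test, beside 16.7% higher and 19.4% lower over all genes tested. The median log2 fold change of the 19 was 0.37. ERG, MYB and LMO4 passed the filter only through the basophil-like cells, and SPI1 and TFEC only through the remaining cells. IKZF2, a zinc finger factor of the Ikaros family, was at 5.31, 9.09 and 10.2 in the basophil-like cells, against 0.865, 1.28 and 0.729 in the remaining cells. ERG, an ETS factor of stem cells and endothelium, was at 3.25, 2.42 and 1.37 in the basophil-like cells, against 0.0411, 0.0617 and 0.0741 in the remaining cells. MYB, a factor of progenitors and lymphocytes, was at 1.48, 1.82 and 2.90 in the basophil-like cells, against 0.140, 0.120 and 0.151 in the remaining cells. The libraries did not overlap in these factors, as in 25.4% of all genes tested, and MYB had a value in 19 of the 54 cells.

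The log2 fold changes were 2.55 (SE 0.27) for IKZF2, 2.29 (SE 0.28) for ERG and 1.97 (SE 0.24) for MYB. ZEB2, LMO4 and RUNX2 rose by 1.77, 1.56 and 1.38. RUNX1 and FLI1 were called higher, but the FLI1 call was lost without replicate 1 or 3 (adjusted p from 0.00203 to 0.0573 over the alternatives), and the RUNX1 call whichever of the 3 libraries was left out (from 0.0098 to 0.181) and with the hen as a block (limma adjusted p = 0.055). MITF, a factor that mammalian mast cells need, was at 2.36, 1.82 and 3.20 in the basophil-like cells, against 3.91, 6.55 and 4.41 in the remaining cells, a call that was lost whichever of the 3 libraries was left out (adjusted p from 0.0166 to 0.218 over the alternatives). SPI1, the myeloid factor PU.1, was at 0, 0 and 0.457 in the basophil-like cells, against 1.11, 2.28 and 1.55 in the remaining cells, and its call was lost without replicate 2 (adjusted p from 0.0018 to 0.0581 over the alternatives). TFEC, a relative of MITF, was at 0 in all basophil-like cells, at least 4.48-fold lower. IKZF1 was called lower, and the call was lost without replicate 1 or 3 (adjusted p from 0.0101 to 0.174 over the alternatives). GATA3, a factor of T cells and mast cells, was at 2.36, 2.73 and 0 in the basophil-like cells, against 4.08, 3.94 and 3.70 in the remaining cells, which did not pass the test without a block for the hen (limma adjusted p = 0.135) and did with it (limma adjusted p = 0.0243). CEBPA, CEBPB and CEBPD, factors of granulocytes and monocytes, were at 0 in all 54 cells. They were below the filter in the comparison with the remaining cells, where their levels were 0.125, 0.263 and 0.582. In the comparison with the monocyte gate described below, CEBPB and CEBPD passed the filter only through that gate and were called lower.

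Adhesion genes were mixed. Of 23 listed, 18 were in the matrix and 10 passed the filter. Of these, 4 were higher and 4 were lower, beside 16.7% higher and 19.4% lower over all genes tested. The median log2 fold change of the 10 was 0.31. ITGA2B and SELPLG passed the filter only through the basophil-like cells, and CD82 and ITGA1 only through the remaining cells. ITGA2B encodes the alpha chain of the thrombocyte integrin CD41/61, for which the hens' blood was depleted. It was at 4.13, 6.67 and 5.03 in the basophil-like cells, against 0.297, 0.319 and 0.313 in the remaining cells, and the groups did not overlap (log2 fold change 2.81, SE 0.21, limma adjusted p = 7.75e-05). It had a value of 1 or more in 34 of the 54 cells. In the thrombocyte gate, which uses this gene, it was at 21.6, 8.46 and 9.71. ITGB3, the partner chain, was at 0 in all basophil-like cells, and so were the thrombocyte genes GP9 and TUBB1, so that ITGA2B alone gave the summed thrombocyte markers of 4.13, 6.67 and 5.03.

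SELPLG, the ligand of selectins, rose by 1.84 on the log2 scale. CD44, the hyaluronan receptor, was at 19.8, 11.8 and 19.7 in the basophil-like cells, against 54.5, 42.2 and 39.7 in the remaining cells (log2 fold change -1.41, SE 0.23), and CD82 was at 0 in all basophil-like cells, at least 8.97-fold lower. ITGB1, the beta chain of many integrins, was called higher, and the call was lost without replicate 1 or 2 (adjusted p from 0.00574 to 0.117 over the alternatives). ITGB2, the beta chain of leukocyte integrins, was called higher, and the call was lost without replicate 1 or 3 (from 0.00816 to 0.099) and with the hen as a block (limma adjusted p = 0.0513). The alpha chain genes ITGA1 and ITGAV were called lower, ITGA1 not without replicate 1 (from 0.0014 to 0.0667) and ITGAV not without replicate 2 or 3 (from 0.0229 to 0.239).

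The genes that rose most were led by KIF1BP, a protein that binds kinesin motors, on chromosome 6 from 11559316 to 11575233. It was at 359, 416 and 421 per 10000 in the basophil-like cells, against 7.11, 9.76 and 7.89 in the remaining cells (log2 fold change 5.52, SE 0.15, limma adjusted p = 1.32e-06). Cell by cell, its values lay between 35 and 183 in the 54 basophil-like cells, with a median of 92.5, whereas the highest of the 11988 remaining cells had 23. The gene alone thus separated the groups, although the rule did not use it. KIF1BP overlaps LOC121111220 in the annotation, which had a value in 7 of the 54 cells, and how reads were shared between them is not given in the sources used here.

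ADGRL3, an adhesion G protein-coupled receptor of the latrophilin family, was at 18.6, 17.9 and 22.3 in the basophil-like cells, against 0.0487, 0.136 and 0.0426 in the remaining cells. It was detected in 49 of the 54 basophil-like cells, in 14 of 100 eosinophil-like cells and in 15 of 6482 T-gate cells. TNS1, a tensin that links integrins to actin, was at 33.1, 29.4 and 27.0 in the basophil-like cells, against 0.251, 0.708 and 0.659 in the remaining cells, and was detected in all 54 cells. It was also detected in 564 of 928 monocyte-gate cells and in 13 of 100 eosinophil-like cells. TIAM2, an activator of the small GTPase Rac, was at 24.2, 25.1 and 24.2 in the basophil-like cells, against 0.410, 0.467 and 0.485 in the remaining cells. It was detected in 51 of the 54 basophil-like cells and in 184 of 928 monocyte-gate cells. In the annotation, TIAM2 overlaps SCAF8 and TFB1M, and TNS1 overlaps RUFY4. The levels of TIAM2 differed little between the hens, and the log2 fold changes were 5.12 (SE 0.17) for ADGRL3, 4.89 (SE 0.22) for TNS1 and 4.71 (SE 0.14) for TIAM2.

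ATP8A2, a phospholipid flippase, was at 17.7, 9.70 and 14.8 in the basophil-like cells, against 0.0459, 0.0432 and 0.0315 in the remaining cells (log2 fold change 4.71, SE 0.23). CA2, a carbonic anhydrase, was at 10.0, 4.55 and 6.71 in the basophil-like cells, against 0.0850, 0.108 and 0.0979 in the remaining cells. SLC45A3, a transporter of the solute carrier family, was at 6.79, 15.8 and 10.5 in the basophil-like cells, against 0.420, 0.527 and 0.531 in the remaining cells. Replicate 1 was highest in ATP8A2 and CA2 and replicate 2 in SLC45A3, and no library overlapped with the remaining cells. The ubiquitin ligase gene RNF150 and SUSD1 completed the 15 genes that rose most, with log2 fold changes of 3.51 (SE 0.20) and 3.50 (SE 0.20). Of the 15, ADGRL3, TIAM2, ATP8A2, CRCBL, GZMA, CA2, RNF150, SUSD1, GAB1 and SLC45A3 had means below 0.5 in the remaining cells. These genes passed the filter only through the basophil-like cells, so their direction was fixed by it.

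The T-cell markers did not move together. Of 10 listed genes, 8 passed the filter. Of these, 2 were higher, 4 were lower and 2 did not pass the test, beside 16.7% higher and 19.4% lower over all genes tested. CD247, THEMIS and IL7R, 3 of the 4 lower genes, passed the filter only through the remaining cells. CD3D, a chain of the T-cell receptor complex on chromosome 24 from 5513856 to 5516395, was at 35.4, 43.0 and 38.7 per 10000 in the basophil-like cells, against 3.23, 2.36 and 3.10 in the remaining cells. CD3E, its partner chain, was at 7.38, 10.3 and 6.40 in the basophil-like cells, against 2.48, 1.50 and 2.24 in the remaining cells. Both genes were higher in every library, by 3.55 (SE 0.16, limma adjusted p = 1.01e-05) for CD3D and 1.72 (SE 0.23, limma adjusted p = 0.00113) for CD3E on the log2 scale. CD3E overlaps MPZL2 in the annotation. The study also reported high CD3D and CD3E in its putative basophil cluster, and stated that this cluster may hold a mixture of cell types.

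The levels of CD3D were also above those of the T gate, in which this gene was used to choose the cells and stood at 5.03, 4.40 and 5.28. CD3E was at 3.98, 3.06 and 3.98 in the T gate. CD3D was detected in 53 of the 54 basophil-like cells, with a median of 9 and a highest value of 21 per cell, whereas the 6482 T-gate cells had a median of 1 and a highest value of 13. CD3E was detected in 42 of the basophil-like cells, with a median of 2. No test was run between the basophil-like cells and the T gate.

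Several other genes of T cells were low or at 0 in the same cells. CD247, the zeta chain of the receptor complex, was at 0, 0 and 0.915 in the basophil-like cells, against 11.8, 9.83 and 10.3 in the remaining cells and 19.0, 20.2 and 18.3 in the T gate. BCL11B, a factor that T cells need, was at 0.591, 0.909 and 0.457 in the basophil-like cells, against 21.2, 19.9 and 18.2 in the remaining cells. THEMIS and IL7R were each at 0, 0 and 0.152 in the basophil-like cells, with T-gate levels of 6.36 to 8.52 for THEMIS and 5.45 to 7.53 for IL7R. The log2 fold changes against the remaining cells were -3.97 (SE 0.40) for CD247, -4.15 (SE 0.19) for BCL11B, -3.39 (SE 0.22) for THEMIS and -3.03 (SE 0.24) for IL7R.

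TRBV6-5, annotated as a T-cell receptor beta gene and chosen after its values were seen, was at 0, 0 and 0.457 in the basophil-like cells, against 10.3, 6.90 and 9.07 in the remaining cells, although 15 annotated genes overlap it. TARP, which holds receptor gamma segments, was at 3.25, 6.06 and 3.66 in the basophil-like cells, against 4.05, 5.23 and 4.69 in the remaining cells, and did not pass the test, and neither did CD4. TARP was detected in 30 of the 54 basophil-like cells, or 55.6%, against 28.6% of remaining and 46.5% of T-gate cells. In the annotation, 14 genes overlap TARP. CD8A and CD8BP were at 0 in all basophil-like cells, against 0.391 and 0.101 in the remaining cells. The summed T-cell list came to 47.2, 62.1 and 50.9 in the basophil-like cells, against 55.6, 48.1 and 47.8 in the remaining cells and 83.0, 90.4 and 79.1 in the T gate. Without CD3D and CD3E, the summed list had a median of 1 per basophil-like cell and a highest value of 5, against medians of 10 in the remaining and 17 in the T-gate cells. At least 1 gene of this shorter list had a value in 72.2% of basophil-like, 74.1% of remaining and 99.8% of T-gate cells.

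**Figure D3:**
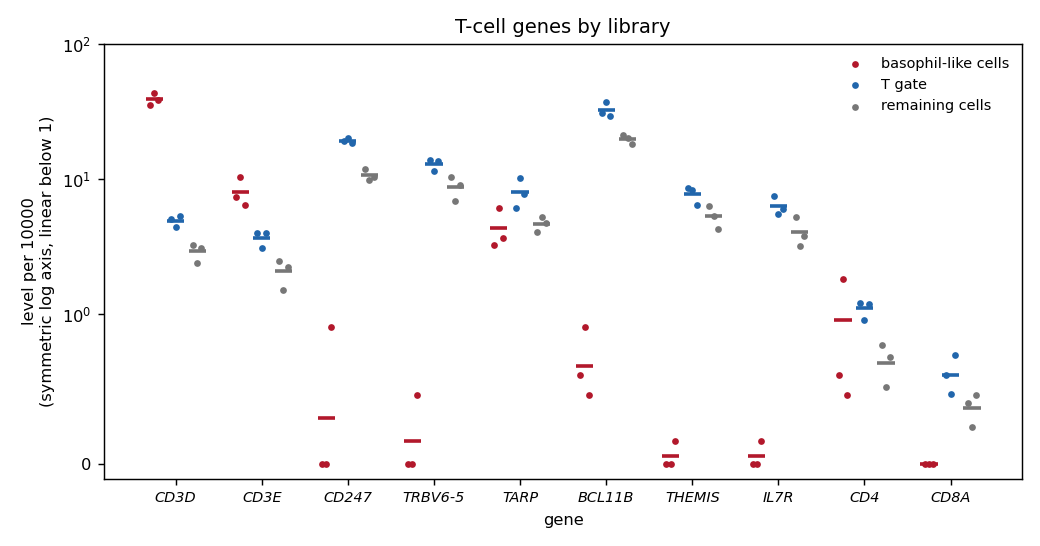
Level per 10000 (y axis, symmetric log scale) of 10 T-cell genes (x axis) in the basophil-like cells (red), the T gate (blue) and the remaining cells (grey). Points are the 3 libraries and bars their means. CD3D and CD3E are highest in the basophil-like cells, while CD247, TRBV6-5, BCL11B, THEMIS and IL7R lie at least an order of magnitude below the T gate, and TARP and CD4 overlap with the remaining cells.

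The 4 cytolytic markers summed to 8.86, 19.1 and 11.3 in the basophil-like cells, against 4.10, 5.22 and 8.01 in the remaining cells, and at least 1 of them had a value in 79.6% of basophil-like cells, against 18.1% of remaining and 23.8% of T-gate cells. Of these markers, 3 passed the filter, GZMA only through the basophil-like cells and GNLY only through the remaining cells. GNLY, the granulysin gene, was lower (0.295, 0.303 and 0.305 in the basophil-like cells, against 3.09, 3.98 and 6.34 in the remaining cells, log2 fold change -2.58, SE 0.26). GZMA was higher, as given above. FASLG was called higher by 1.38, and the call was lost without replicate 2 or 3 (adjusted p from 0.00359 to 0.102 over the alternatives).

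The genes that fell most included factors of lymphocytes and genes of MHC class II. TOX and TCF7, factors of T cells, were at 0.0984 ± 0.170 and 0.454 ± 0.551 in the basophil-like cells, against 11.7 ± 3.00 and 16.5 ± 4.31 in the remaining cells (SD, n = 3 each). EBF1, a factor of B cells, was at 0, 0.303 and 0 in the basophil-like cells, against 11.4, 11.3 and 8.59 in the remaining cells. CD74, the invariant chain of MHC class II, was at 0.303 ± 0.525 in the basophil-like cells, against 12.7 ± 5.44 in the remaining cells. BLB2, a class II beta chain of the chicken, was at 0 in all basophil-like cells and at 9.05 ± 5.62 in the remaining cells, at least 40.0-fold lower. The synaptic scaffold gene ERC2 was at least 52.9-fold lower, HDAC9 at least 39.0-fold and KLF12 at least 35.7-fold, each at 0 in the basophil-like cells. CDK14, a cyclin-dependent kinase, fell by 4.29 on the log2 scale, and BCL11B, given above, was also among the 10 genes that fell most. In all, 91 genes tested were at 0 in every basophil-like library. Their direction was fixed by the filter, which let a gene at 0 in the basophil-like cells pass only if it was high enough in the remaining cells. TOX, TCF7, EBF1 and CD74 had means below 0.5 in the basophil-like cells. They too passed the filter only through the remaining cells, so their direction was also fixed by it.

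Over the 12042 cells, the genes whose log values went most closely with those of CTSG were LOC121113271 (Pearson r = 0.59), ADGRL3 (0.53), the non-coding gene LOC101750361 (0.52), ATP8A2 (0.51) and RLN3, the gene of relaxin 3 (0.47). These values describe the pool of 54 chosen and 11988 other cells, which share libraries and depth. LOC101750361 lies on chromosome 12 from 9410321 to 9525971, beside GATA2. It was at 3.25, 6.97 and 4.27 in the basophil-like cells, against 0.00287, 0.00154 and 0.00596 in the remaining cells. LOC121113271 was at 7.09, 4.85 and 3.05 in the basophil-like cells, against 0.000955, 0.00463 and 0.00255 in the remaining cells, and both were at 0 in the eosinophil-like and thrombocyte gates. RLN3 varied most between the hens, with 4.72, 1.21 and 7.47 in the basophil-like cells, and its call was lost without replicate 1 or 3 (adjusted p from 0.000127 to 0.0727 over the alternatives). It had a value in 3 of the 11988 remaining cells, so it passed the filter only through the basophil-like cells.

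**Figure D4:**
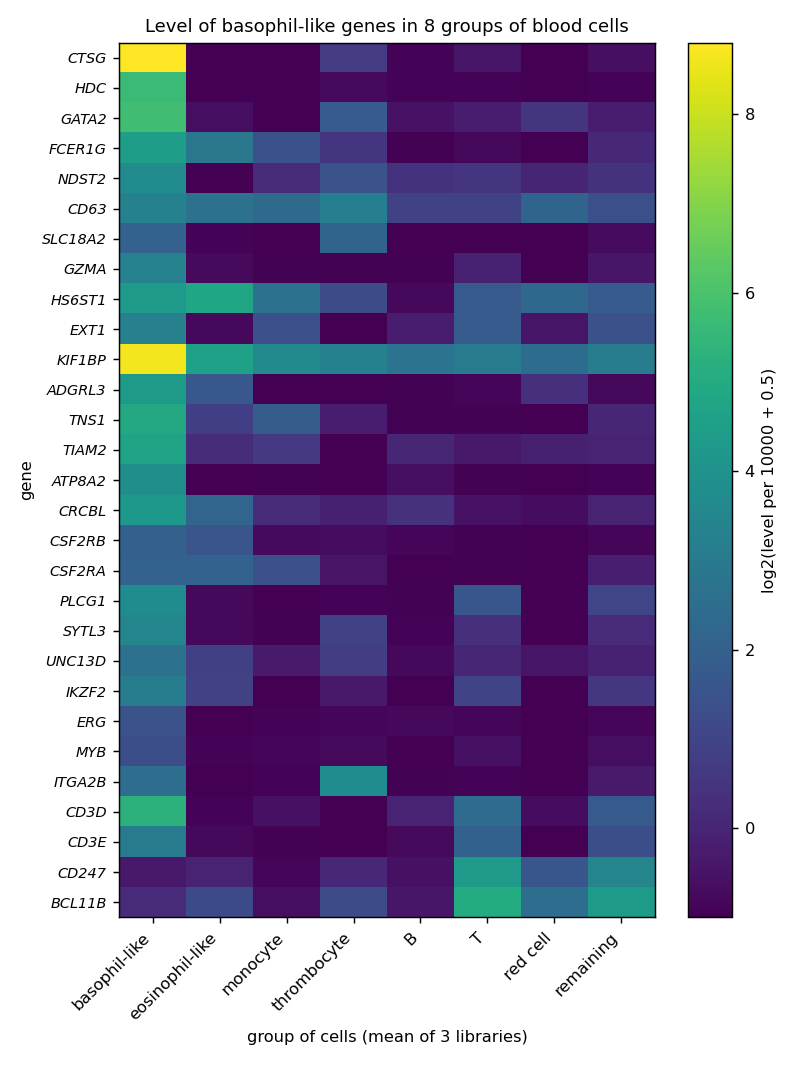
Mean level of 3 libraries as log2(level per 10000 + 0.5) (colour) of 29 genes (rows) in the basophil-like cells and 7 other groups of cells (columns). CTSG, HDC and GATA2 chose the basophil-like cells, and ITGA2B, CD3D, CD3E and CD247 were used for the thrombocyte and T gates. KIF1BP, TNS1, TIAM2 and ATP8A2 are brightest in the basophil-like column, while HS6ST1 is as bright in eosinophil-like cells and ITGA2B brighter in thrombocytes.

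The other granulocytes compared were the eosinophil-like cells, 100 cells with DACH1, IL5RA and at least 3 of 6 eosinophil markers at 1 or more. Of 3115 genes tested against them, 631 were higher in basophil-like cells, or 20.3%, and 634 were lower, or 20.4% (limma adjusted p under 0.05). Of the 628 higher genes outside the rule, 384 passed the filter only through the basophil-like cells. Of the 634 lower genes, 282 passed it only through the eosinophil-like cells. Without replicate 1 the calls numbered 707 in all, against 1265. FCER1G was higher in basophil-like cells here too, at 24.8, 21.8 and 17.2 against 7.49, 7.79 and 5.32 in eosinophil-like cells (log2 fold change 1.57, SE 0.27). CSF2RA was at 2.66, 3.64 and 4.88 in basophil-like cells, against 2.91, 3.67 and 4.56 in eosinophil-like cells, and CSF2RB at 2.36, 3.33 and 4.73 against 3.64, 2.29 and 1.52. The libraries overlapped in both receptor genes, with log2 fold changes of -0.01 (SE 0.34) and 0.43 (SE 0.37) that did not pass the test.

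HS6ST1 and CD63 did not pass this test either, with log2 fold changes of -0.45 (SE 0.23) and 0.63 (SE 0.28). EXT1 was at 12.1, 8.18 and 7.01 in basophil-like cells, against 0, 0 and 0.253 in eosinophil-like cells, and NDST2 was listed at 0 in all 3 eosinophil-like libraries. Both were higher in basophil-like cells (limma adjusted p = 3.93e-07 for EXT1 and 3.27e-08 for NDST2). EXT1 and NDST2 passed the filter here only through the basophil-like cells, so their direction was fixed by it. XYLT1 went the other way, at 2.95, 1.21 and 3.20 in basophil-like cells, against 12.8, 8.25 and 10.1 in eosinophil-like cells. LYN, the kinase, was also lower in basophil-like cells, at 5.31, 6.36 and 4.73 against 26.5, 35.9 and 37.3, and MITF stood at 2.36, 1.82 and 3.20 against 13.7, 20.6 and 18.0.

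Eicosanoids are lipid mediators such as leukotrienes and thromboxane. Of 18 listed genes, 14 were in the matrix and 5 passed the filter against the eosinophil-like cells. All 5 were lower in basophil-like cells, beside 20.4% of all genes of this comparison. Their median log2 fold change was -1.68, beside 0.06 over all genes of this comparison. PLA2G4A passed the filter only through the eosinophil-like cells. TBXAS1, the thromboxane synthase, was at 5.61, 10.3 and 9.30 in basophil-like cells, against 19.1, 16.8 and 24.6 in eosinophil-like cells. ALOX5, the lipoxygenase of leukotriene synthesis, was at 0.591, 0.303 and 1.52 in basophil-like cells, against 2.39, 2.14 and 3.30 in eosinophil-like cells. Each of the 5 calls was lost when some library was left out. This was replicate 1 for TBXAS1 (adjusted p from 0.000355 to 0.0509 over the alternatives) and LTA4H (from 0.00162 to 0.0945), and replicate 3 for ALOX5AP (from 0.000236 to 0.0575). The ALOX5 call was lost without replicate 1 or 2 (from 0.0101 to 0.132), and the PLA2G4A call without replicate 1 or 3 (from 0.00298 to 0.0834). Against all remaining cells, TBXAS1 was called higher by 0.96, a call lost without replicate 2 or 3 (adjusted p from 0.00413 to 0.183 over the alternatives), and LTA4H did not pass the test. HPGDS, the prostaglandin D synthase of mammalian mast cells, was at 0 in all 54 cells, but it also had a level of only 0.00418 in the remaining cells.

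The 5 genes that rose most against eosinophil-like cells were CD3D, KCNQ1, ATP8A2, NDST2 and TIAM2. All but TIAM2 had means below 0.5 in the eosinophil-like cells, so their direction was fixed by the filter. KCNQ1, a potassium channel, was at 36.0, 51.2 and 37.2 in basophil-like cells, against 0, 0 and 0.507 in eosinophil-like cells and 11.7 on average in the T gate. The genes that fell most were RPS6KA2 (1.82 ± 1.34 in basophil-like cells, against 221 ± 24.8 in eosinophil-like cells), ATP11A, ZNF516, TBC1D5 and ANGPT1. ATP11A, ZNF516 and ANGPT1 were at 0 in the basophil-like cells, so they passed the filter only through the eosinophil-like cells. Eosinophil-like cells had medians of 609 to 673.5 genes per cell by library, against 1097.5 to 1309 in basophil-like cells, and the part of this difference in the calls was not tested.

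The monocyte gate (MMR1L4 at 2 or more) held 928 cells. Of 3232 genes tested, 851 were higher in basophil-like cells, or 26.3%, and 723 were lower, or 22.4% (limma adjusted p under 0.05). The median log2 fold change was 0.19 over all genes tested. Of the 848 higher genes outside the rule, 482 passed the filter only through the basophil-like cells. Of the 723 lower genes, 444 passed it only through the monocyte gate. The 5 genes that rose most were CD3D, KCNQ1, ADGRL3, KIF1BP and ATP8A2. All but KIF1BP had means below 0.5 in the monocyte gate, so their direction was fixed by the filter. FCER1G was at 24.8, 21.8 and 17.2 in basophil-like cells, against 1.44, 2.81 and 2.56 in the monocyte gate (log2 fold change 3.00, SE 0.27), and PLCG1 was at 11.5, 14.5 and 13.0 against 0, 0 and 0.0193. PLCG1 passed the filter here only through the basophil-like cells, so its direction was fixed by it. Of the 7 exocytosis genes that passed the filter here, 6 were higher and 1 was lower, with a median log2 fold change of 2.02. Of the 6, 5 passed the filter only through the basophil-like cells. UNC13D and RAB27A, both among these, differed by 2.97 (SE 0.22) and 2.85 (SE 0.24). LAMP1 was at 3.25, 3.94 and 3.96 in basophil-like cells, against 3.07, 4.25 and 3.90 in the monocyte gate, so its libraries overlapped, and CTSB did not pass the test either. CTSC did not pass it without a block for the hen (limma adjusted p = 0.0655) and did with it (limma adjusted p = 0.00396). CTSS, a protease of antigen-presenting cells, was lower, at 0.591, 1.21 and 0.762 in basophil-like cells, against 3.67, 5.79 and 5.84 in the monocyte gate.

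The genes that fell most against the monocyte gate were BLB2, FN1, CD74, VCAN and CSF3R. All of them had means below 0.5 in the basophil-like cells, so their direction was fixed by the filter. FN1, the fibronectin gene, was at 0.0984 ± 0.170 in basophil-like cells, against 39.6 ± 6.95 in the monocyte gate, and VCAN, the gene of the matrix proteoglycan versican, was listed at 0, against 22.9 ± 1.55. MITF and TFEC were both lower in basophil-like cells, with MITF at 2.36, 1.82 and 3.20 against 29.0, 24.7 and 17.1. TFEC passed the filter here only through the monocyte gate. RUNX1 was higher, at 44.9, 41.5 and 43.0 in basophil-like cells, against 7.38, 7.24 and 10.9 in the monocyte gate.

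The 54 cells also varied among themselves. CTSG ran from 27 to 209 per cell with a median of 104.5, HDC from 1 to 40 with a median of 12, and GATA2 from 3 to 34 with a median of 12.5. The medians of CTSG in the 3 replicates lay between 93.5 and 108. Over the cells, CTSG went with CD3D (Spearman rho = 0.54, and 0.55, 0.65 and 0.58 within replicates 1, 2 and 3) and with KIF1BP (0.53, and 0.23, 0.76 and 0.62). FCER1G followed CTSG with a rho of 0.48. HDC and CTSG had a rho of 0.01 over all cells, with 0.62, 0.18 and -0.26 within replicates 1, 2 and 3. These correlations are over 54 cells that share 3 libraries, all of them chosen by CTSG, HDC and GATA2, and are given as a description. They were computed on scores scaled to 10000 within each cell.

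**Figure D5:**
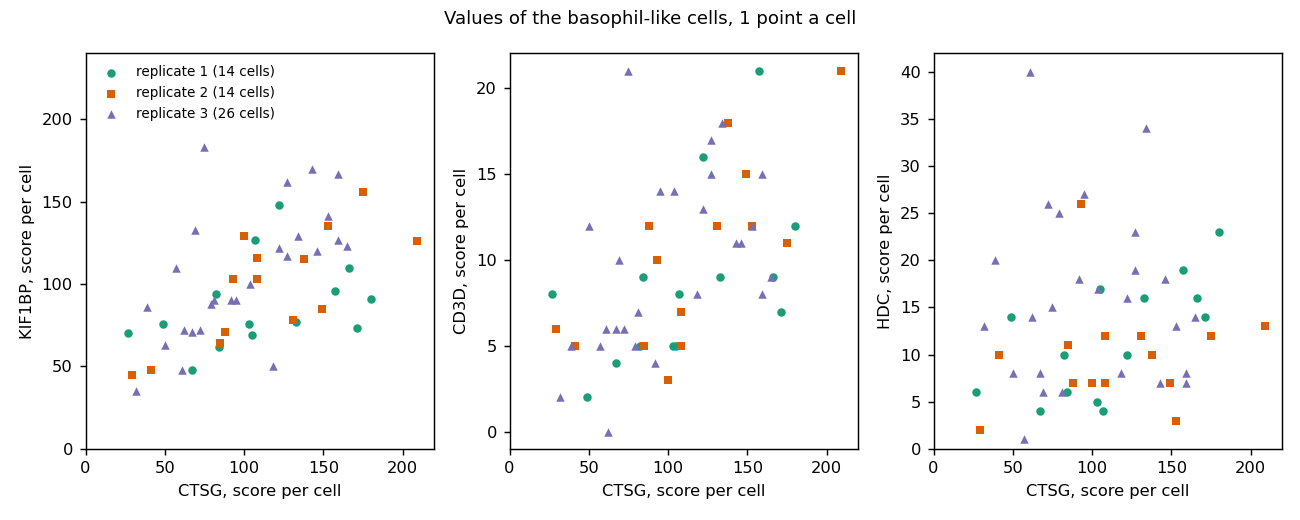
KIF1BP, CD3D and HDC per cell (y axes) against CTSG (x axis), as deposited scores, in the 54 basophil-like cells. Each point is a cell, with circles, squares and triangles for replicates 1, 2 and 3. KIF1BP and CD3D are higher where CTSG is higher, with rho of 0.53 and 0.54, while HDC, with a rho of 0.01, is spread over the whole range of CTSG.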

How the data were processed

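Single leukocytes were captured in droplets and their transcripts counted by the authors with Cell Ranger against the RefSeq annotation of GRCg7b, and deposited as 4 libraries. Per the study's methods, doublets were removed with DoubletDetection before deposit, cells of low quality were filtered, and counts were corrected with SCTransform in Seurat. The labels' processing notes give Cell Ranger 1.2.0, whereas the methods name a later version. The deposited values are scores: whole numbers with totals of 1577 to 3004 per cell, which were read as depth-corrected counts since raw totals would differ more, so no count model was used. The files do not state which filters the cells had passed, and no doublet call was added here. Barcodes with no prefix were taken as replicate 1, since the prefixes name samples 2 to 4. No column of another series was used. Of 15271 symbols, 15209 were matched to the annotation table for positions. Overlaps with other genes are not given for every named gene. They also hold for BTK with RPL36A, LAT2 with EIF4H, SELPLG with CORO1C and FASLG with TNFSF4, among others.

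Values were summed per library over the basophil-like cells, the remaining cells and the gates, and scaled to 10000. Every profile held at least 5 cells. Genes with a mean of at least 0.5 over the profiles compared were tested with limma 3.58.1 in R 4.3.3 (log2(level + 0.5), trended prior, no covariate), which differs from the study's test over cells. Benjamini-Hochberg adjusted p under 0.05 were called. The members and gene lists were chosen with earlier results of these data known. Named genes are those of the lists, the 15 highest and 10 lowest fold changes against the remaining cells (5 and 5 in the other comparisons) among called genes that moved the same way in all 3 libraries, and the 5 genes most like CTSG. The groups come from the same hens, and deviations of same-numbered profiles correlated by -0.02 to 0.06. The p-values measure the spread between 3 hens, which limma moderates with the spread of the other genes. The basophil-like profiles rest on 14, 14 and 26 cells, so this spread also holds counting error. Scripts were tested on simulated data. 1 gene of the lists is not reported here.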

Additional observations from a re-analysis of the deposited data

How the results depend on the processing

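The counts of genes called against all remaining cells (1249), eosinophil-like cells (1265) and the monocyte gate (1574) moved most with the filter on low levels. A mean of at least 2 per 10000, which leaves fewer genes to test, gave 518, 614 and 587 calls. No filter gave 5964 calls against the remaining cells, of which 730 were higher (against 579 of 1249), and 3008 against the monocyte gate, of which 833 were higher (against 851 of 1574). Leaving out 1 replicate gave 736 to 896, 707 to 951 and 1054 to 1278 calls. With the hen as a replicate block the calls numbered 1162, 1321 and 1604, of which 1074, 1249 and 1508 were also called without the block. Array weights per group, an alternative chosen after seeing the data, gave 1021, 1264 and 1562 calls. Other pseudocounts, a looser or stricter rule, scaling without the genes of the rule, and the mean of the entries of replicates 3 and 4 kept the counts within 1.5 times. Scaling without CTSG, HDC and GATA2 moved the median log2 fold change against the remaining cells to -0.01. The alternative with members free of CD3D and CD3E could not be run, since 1 cell was left. The share of cells stayed between 0.417 and 0.525% when a replicate was left out. Of 96 named genes called against the remaining cells, 70 kept the call under all 14 alternatives that tested them and 26 lost it under at least 1. The counts were 65 and 17 of 82 against the eosinophil-like cells, and 74 and 14 of 88 against the monocyte gate. Among the 14, the stricter rule and a limit of 20% mitochondrial transcripts in the basophil-like cells kept the same 54 cells. These alternatives could therefore not change a call. Some calls against the remaining cells given above as lost without a replicate were also lost with all 3 kept. Under array weights these were CSF3R, CTSB, EXTL3, TBXAS1, TGFBR2, CXCR4, MITF, FLI1, RUNX1, ITGAV, ITGB1 and ITGB2. With a pseudocount of 0.1 they were XYLT1 and IFNGR1. Scaling without the genes of the rule also lost IFNGR1, and the looser rule lost ITGAV. No named gene changed sign where the main fit or the alternative called it. Some genes called in neither did change sign, such as CD4 against the remaining cells (log2 fold change from -0.29 to 0.48 over the alternatives). With 54 cells, a gene at 0 may have been at up to about 0.226 per 10000, if the corrected scores are treated as counts.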
